A study of Mus musculus with 6 samples.

Results

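Fibro-adipogenic progenitors are mesenchymal cells of the skeletal muscle interstitium. They carry the growth factor receptor PDGFRα, support muscle stem cells (MuSCs) after injury and are known as a source of matrix-producing fibroblasts and of fat cells in dystrophic muscle. The 10 genes described here, Pdgfra, Ly6a, Dcn, Lum, Dpt, Smoc2, Cxcl14, C1qtnf3, Gsn and Dpysl3, are genes used to mark these cells and related fibroblasts. They were taken by symbol from the 22706 genes of an RNA-seq table of sorted mouse MuSCs, and all 10 were in the table and passed the minimum level for testing. Collagens were not included.

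The libraries came from 3 groups with 2 libraries each. Control libraries are labelled wild type. The mdx libraries come from dystrophin-deficient mice, the standard model of Duchenne muscular dystrophy. Sirt6mKO/mdx libraries carry the same mdx allele and, in addition, a loxP-flanked Sirt6 gene that a Cre recombinase placed in the Pax7 gene is meant to remove from cells that have expressed Pax7. Sirt6 encodes a histone deacetylase of the nucleus. The labels give C57BL/6 for every library, the background on which the study says its mice were kept, and the mdx strain was obtained on C57BL/10ScSn. Age and sex per library are not in the labels; the study describes the mice of its control, mdx and Sirt6mKO/mdx experiments as adult males. Muscle was digested and cells carrying CD45 (leukocytes), CD31 (endothelium) or Sca1 were depleted with magnetic beads. MuSCs were then sorted by Integrin-α7 and CD34 or by a Pax7-linked fluorescent reporter. Which of these gates gave each library is not stated. The study reports that its sorted cells, when checked again, were not fully pure, so the pools may hold other cells. Sca1 is the product of Ly6a, and it marks fibro-adipogenic progenitors as well as vessel cells, so 1 of the 10 genes encodes a protein that the sort selected against. RNA of a sorted pool gives no cell counts, and more cells of a type and more RNA per cell cannot be told apart.

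The libraries held between 4397632 and 9744261 gene-assigned reads, as recovered approximately from the scaling of the values, and 18983 to 20614 genes above 0. Markers of MuSCs were abundant in all of them: the median of 12 such genes lay between 2211.5 and 2795.5 normalized read counts, and Pax7, the transcription factor that defines these cells, was between 2167 and 3236. Of the 12, Sdc4, a syndecan on the surface of these cells, was called lower in mdx than in control and higher in Sirt6mKO/mdx than in mdx, with 7692 and 6224 (control), 1100 and 1049 (mdx) and 2753 and 2822 (Sirt6mKO/mdx). Checks of the labels went against the descriptions. Sirt6 had 41 and 32 normalized read counts (control), 33 and 40 (mdx) and 37 and 30 (labelled Sirt6mKO/mdx), which is no lower than in the other groups beyond the spread between replicates. Whether reads were lost over the floxed exons was not tested, since the values are per gene, and Sirt6mKO/mdx is used below as a label. Xist, which is transcribed from the inactive X chromosome of females, was at 16772 and 12950 in control and between 7 and 34 in the other 4 libraries, and the Y-linked gene Ddx3y was at 3 and 8 in control and between 1024 and 1767 elsewhere. In every comparison with control below, the sex shown by these genes and the genotype cannot be told apart.

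**Figure D1:**
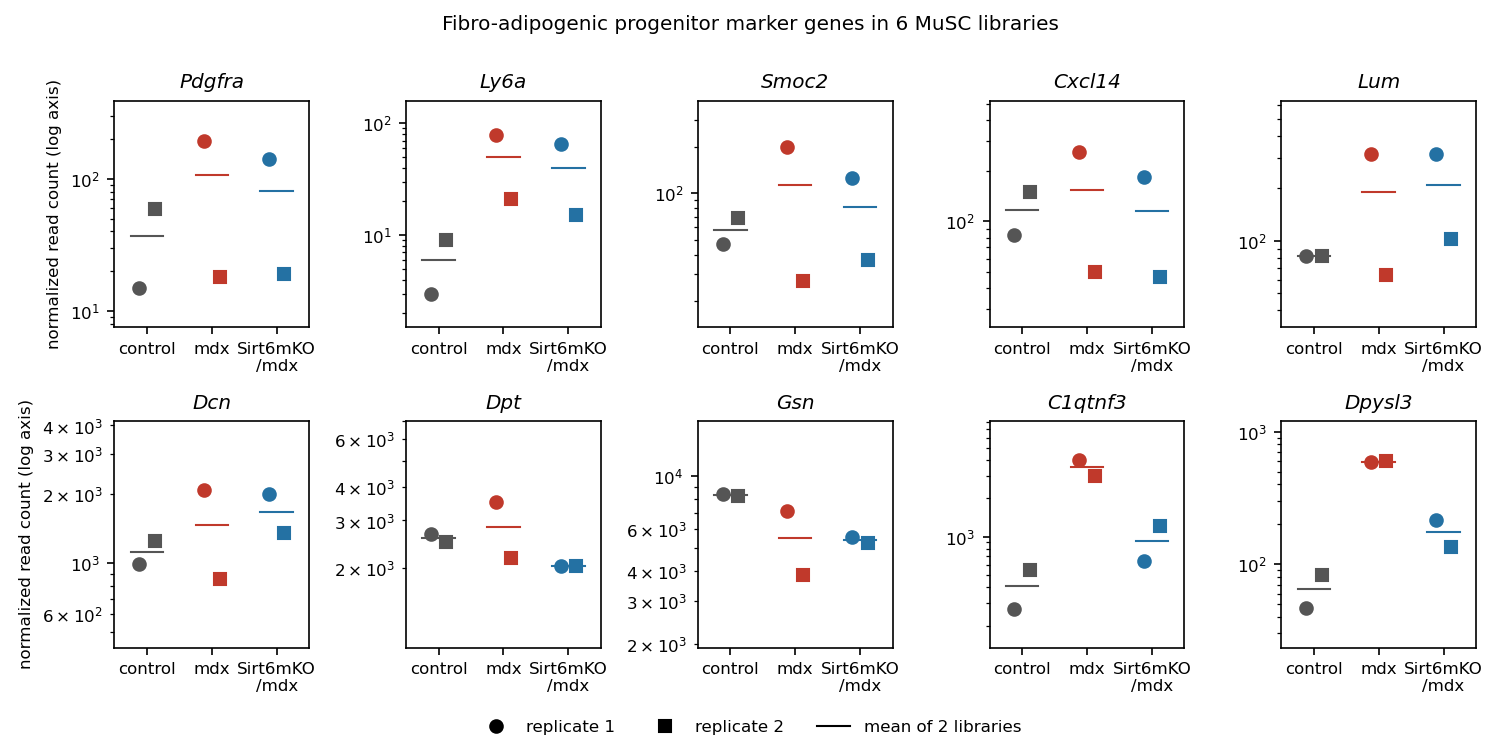
Normalized read count of each of the 10 genes on a log axis, with 1 point per library (circles, replicate 1; squares, replicate 2) and a line at the mean of the 2 libraries of each group. C1qtnf3 and Dpysl3 separate by group, whereas Pdgfra, Ly6a, Smoc2, Cxcl14 and Lum have their 2 highest values in replicate 1 of mdx and of Sirt6mKO/mdx.

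Across the 6 libraries the 10 genes followed 3 patterns. C1qtnf3 and Dpysl3 moved with the group: their means were 8.65-fold and 9.12-fold higher in mdx than in control and lay between in the libraries labelled Sirt6mKO/mdx. Pdgfra, Ly6a, Lum, Smoc2 and Cxcl14 moved with the library: in mdx and in Sirt6mKO/mdx, replicate 1 was 3.10-fold to 10.8-fold above replicate 2. Ly6a moved with the group as well, with every dystrophic library above both control libraries. Of these genes it alone passed the test, in mdx against control. Gsn and Dpt were abundant in every library and passed no test on the values as deposited (each was called in 1 comparison with libraries scaled to equal totals, given below), and Dcn, with a smaller library difference, passed none either. These patterns were described after the values were seen.

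Promoter sequence from RefSeq (GRCm38.p6) was found for 5 of the 10 genes, Pdgfra, Gsn, Dpt, Cxcl14 and C1qtnf3. Its start sites can differ from the gene starts given below, as they do for Pdgfra and Dpt. The 250 bases before the annotated start site are shown for 1 gene of each pattern: C1qtnf3, which moved with the group, at chr15:10952082-10952331; Pdgfra, which moved with the library, at chr5:75152001-75152250; and Dpt, which passed no test on the values as deposited, at chr1:164796413-164796662. All 3 lie on the plus strand and are written 5′ to 3′, with capitals marking matches to TATAAA (the TATA box) or CANNTG (the E-box, the motif of basic helix-loop-helix factors such as MyoD).
C1qtnf3: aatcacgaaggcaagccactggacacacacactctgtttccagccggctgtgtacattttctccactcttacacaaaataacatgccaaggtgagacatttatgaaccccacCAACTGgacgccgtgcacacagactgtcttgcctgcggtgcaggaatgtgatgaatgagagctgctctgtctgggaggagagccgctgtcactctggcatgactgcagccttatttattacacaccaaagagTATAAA
Pdgfra: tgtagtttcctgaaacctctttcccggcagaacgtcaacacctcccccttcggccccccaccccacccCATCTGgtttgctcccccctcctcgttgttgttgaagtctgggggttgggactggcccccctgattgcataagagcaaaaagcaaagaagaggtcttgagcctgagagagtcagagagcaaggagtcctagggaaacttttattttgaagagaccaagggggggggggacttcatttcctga
Dpt: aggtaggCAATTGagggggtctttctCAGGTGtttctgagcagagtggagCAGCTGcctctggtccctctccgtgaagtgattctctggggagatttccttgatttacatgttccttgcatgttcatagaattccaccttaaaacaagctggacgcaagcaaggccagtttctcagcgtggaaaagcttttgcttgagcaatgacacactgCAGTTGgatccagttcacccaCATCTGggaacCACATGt

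The C1qtnf3 window ends in TATAAA, at position -6 directly before the start site, and holds 1 E-box. Whether this match acts as a TATA box was not tested. Pdgfra has 1 E-box and no TATAAA, and Dpt has 6 E-boxes and no TATAAA. Among all 32851 promoter windows of this length, 12.4% hold TATAAA and 66.2% hold CANNTG on either strand. TGANTCA, the AP-1 type motif, is in 6.75% of windows and in none of those of the 5 genes. The motifs do not overlap one another in these windows. A match describes the sequence only.

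Per kilobase of exon, the 10 genes covered a wide range. Mean normalized read counts per kilobase over the 6 libraries were 2029 for Gsn, 1441 for Dpt, 632 for C1qtnf3 and 244 for Dcn, and then 70.4 for Cxcl14, 65.4 for Lum, 42.0 for Dpysl3, 26.6 for Ly6a, 12.1 for Smoc2 and 7.45 for Pdgfra. Pdgfra, the defining receptor of fibro-adipogenic progenitors, was thus the lowest of the 10 per kilobase. The lengths take in all annotated exons of a gene, 10024 bases for Pdgfra and 1205 for Ly6a. Before division by length, Ly6a was below Pdgfra, with means of 6 against 37 (control), 50 against 106.5 (mdx) and 40 against 80.5 (Sirt6mKO/mdx). The order by mean over all libraries does not hold within each group: per kilobase, C1qtnf3 had a mean of 159 in control, below the 192 of Dcn, and of 1377 in mdx, and Dpysl3 had 9.84 in control and 89.7 in mdx. Neighbours in this order overlapped across libraries (Gsn from 1222 to 2668 and Dpt from 1174 to 2032 per kilobase, for example), with 1 exception: the lowest Dcn value per kilobase, 147, was above the highest of Cxcl14, 142.

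How MuSCs from dystrophic muscle differ from healthy ones is the question behind mdx against control. Of the 10 genes, 3 were called higher and none lower, where 6.89% of the 15915 tested genes were called higher, 7.34% were called lower and 14.2% were called in either direction. A gene was called at a Benjamini-Hochberg adjusted p of at most 0.05 over all tested genes, by limma on log2(value + 1), with a change of at least 2-fold. The median log2 fold change was 0.58 over the 10 genes and 0.00 over all tested genes. The effect of the added Sirt6 allele in dystrophic muscle is asked by Sirt6mKO/mdx against mdx, where 2 of the 10 were called lower and none higher, against 2.54% of tested genes called lower, 5.62% called higher and 8.17% in either direction, with medians of -0.24 and 0.02. Relative to control, Sirt6mKO/mdx had 2 of the 10 called higher and none lower, against 5.19% called higher, 2.68% lower and 7.87% in either direction, with medians of 0.68 and 0.01. Each pair of comparisons shares the libraries of 1 group. The same shares of all tested genes are the background for the counts of other gene families.

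**Figure D2:**
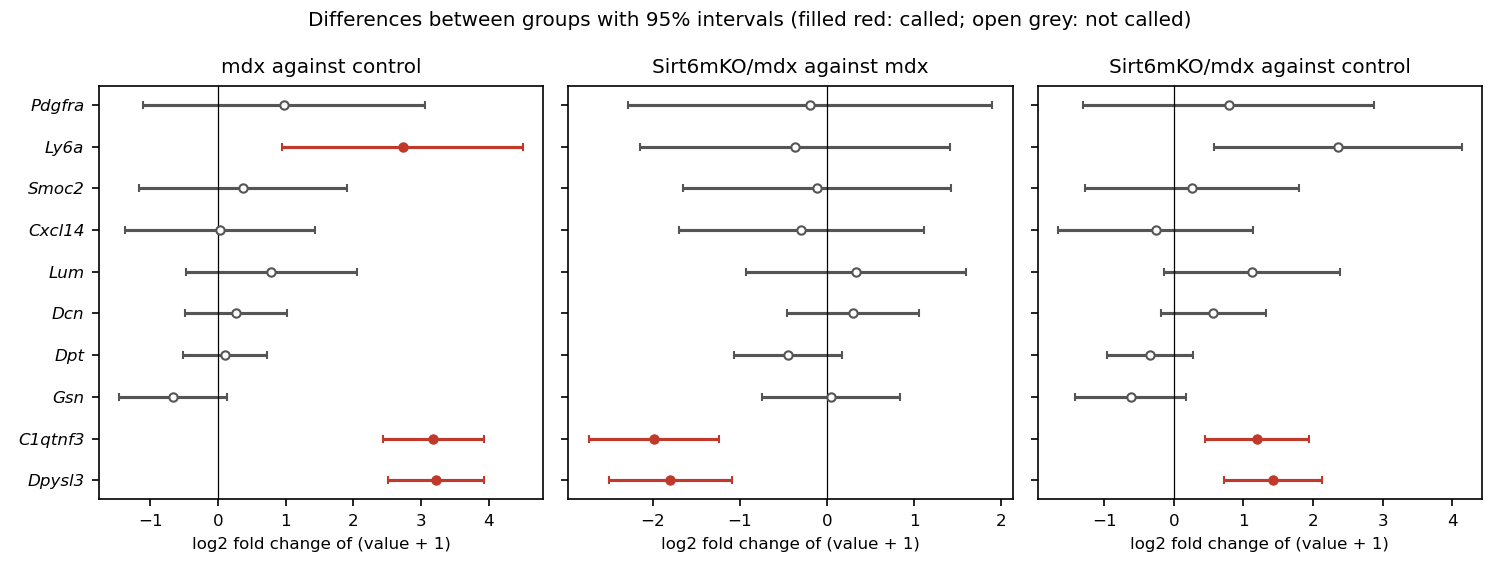
Log2 fold change of (normalized read count + 1) for the 10 genes in the 3 comparisons, with 95% intervals from limma; filled red points were called and open grey points were not. C1qtnf3 and Dpysl3 are called in all 3 comparisons, Ly6a in mdx against control alone, and the intervals of the other 7 genes include 0.

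C1qtnf3 encodes a secreted protein of the C1q and TNF related family, also known as cartonectin. It gave 269 and 545 (control), 4034 and 3007 (mdx) and 638 and 1210 (labelled Sirt6mKO/mdx). The mdx libraries lay above all others, and no groups overlapped. It was higher in mdx than in control by 3.18 on the log2 scale (SE 0.35, 95% interval 2.43 to 3.93, adjusted p = 2.5e-05, limma), a ratio of means of 8.65. In the libraries labelled Sirt6mKO/mdx the mean was 0.262 times that of mdx, and the value fell by 1.99 on the log2 scale (SE 0.35, adjusted p = 0.0029, limma). Against control it was still higher by 1.20 (adjusted p = 0.0463, limma), a call that was lost in 10 of 15 alternatives: the value was 0.69 without control replicate 1 and 0.73 without Sirt6mKO/mdx replicate 2, and the adjusted p was 0.0887 and 0.0998 without either mdx library. The gene lies at chr15:10952332-10980150 (GRCm38).

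Dpysl3 encodes a collapsin response mediator protein, a cytosolic regulator of the cytoskeleton best known from neurons. It gave 47 and 83 (control), 587 and 599 (mdx) and 215 and 134 (labelled Sirt6mKO/mdx), again with no overlap between groups. The 2 mdx libraries differed by less than counting error, with a ratio of 0.98 (95% interval 0.889 to 1.08). Dpysl3 was higher in mdx by 3.23 (SE 0.33, adjusted p = 1.3e-05, limma), then fell by 1.80 in the libraries labelled Sirt6mKO/mdx (adjusted p = 0.0039, limma), where it was still higher than in control by 1.43 (adjusted p = 0.0156, limma). The last call was lost in 8 of 15 alternatives, among them those without control replicate 1, mdx replicate 2 or either Sirt6mKO/mdx library, with adjusted p-values of 0.0568 to 0.168. Dpysl3 lies at chr18:43320979-43438286 (GRCm38).

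The rise of both genes in mdx against control was called whichever single library was left out (where that left a group with 1 library, it was assumed to vary like the other groups), over 2.67 to 3.69 for C1qtnf3 and 2.82 to 3.63 for Dpysl3 on the log2 scale across all alternatives. Their fall between mdx and Sirt6mKO/mdx kept its direction in all alternatives but lost the call in 5 of 15 for C1qtnf3 and in 6 of 15 for Dpysl3. For C1qtnf3 these included -1.77 without mdx replicate 1 (adjusted p = 0.0683, limma) and -1.52 without Sirt6mKO/mdx replicate 1 (adjusted p = 0.0839). For Dpysl3 they included -1.81 and -1.78 without either mdx library (adjusted p = 0.0626 and 0.0838, limma) and -1.46 without Sirt6mKO/mdx replicate 2 (adjusted p = 0.103). A rise in mdx followed by a fall, both called, was found for 0.855% of tested genes. Neither gene followed the library pattern of the other markers: in Sirt6mKO/mdx, replicate 1 of C1qtnf3 was 0.527 times replicate 2, and that of Dpysl3 was 1.60 times replicate 2. None of the 6 tested other genes of the C1q and TNF related family and none of the 3 tested other collapsin response mediator genes was called in any comparison by limma. At an unadjusted p under 0.05 there were 0 of each in mdx against control, 1 of each in Sirt6mKO/mdx against mdx, and 1 and 0 in Sirt6mKO/mdx against control. Of all 15915 tested genes, 4930, 4004 and 3828 were under that level in these 3 comparisons (limma). Dpysl2, the most abundant of the latter, had 1239 and 1784 (control), 1557 and 1633 (mdx) and 956 and 1156 (Sirt6mKO/mdx).

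Pdgfra, the receptor for PDGF-AA and PDGF-CC, gave 15 and 59 (control), 195 and 18 (mdx) and 142 and 19 (labelled Sirt6mKO/mdx). Replicate 1 of mdx and replicate 1 of Sirt6mKO/mdx were high, and the other 4 libraries were between 15 and 59, so that all 3 groups overlapped. No comparison passed the test: the log2 fold change was 0.98 in mdx against control (SE 0.98, 95% interval -1.11 to 3.07, adjusted p = 0.538, limma), and the adjusted p was 0.930 and 0.679 in the others. The 2 mdx libraries differed 10.8-fold (95% interval from counting error 7.13 to 17.5), and 0.163% of tested genes had as high a difference between these libraries. Those of Sirt6mKO/mdx differed 7.47-fold (3.98 to 16.5), and 0.767% of tested genes were as high. In control the ratio was the other way, 0.254 (0.117 to 0.494). The gene lies at chr5:75152291-75198204 (GRCm38). It is overlapped on the other strand by Gm42802 and Gm42803, and 4.93% of its 50-base stretches occur in transcripts of other genes, mainly these. The use of strand in the counting is not stated.

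Of the PDGF ligand genes tested, Pdgfa and Pdgfc were called in at least 1 comparison and Pdgfb was not. Pdgfa, the A chain, had 56 and 82 (control), 265 and 317 (mdx) and 142 and 108 (Sirt6mKO/mdx). It was higher in mdx by 2.08 (adjusted p = 0.000515, limma) and then fell by 1.22 in the libraries labelled Sirt6mKO/mdx (adjusted p = 0.0303, limma). Pdgfc had 9 and 12, then 152 and 68, then 63 and 41, higher than control by 3.17 in mdx and by 2.18 in Sirt6mKO/mdx, with adjusted p-values of 0.001 and 0.0203 (limma). Of the 6 other PDGF genes 5 were tested, and Pdgfb, Pdgfrl and Pdgfrb, the receptor of pericytes, were not called in any comparison. Pdgfrb had 41 and 52 (control), 93 and 45 (mdx) and 110 and 39 (Sirt6mKO/mdx), at least 2-fold above replicate 2 in replicate 1 of both dystrophic groups.

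Ly6a gave 3 and 9 (control), 79 and 21 (mdx) and 65 and 15 (labelled Sirt6mKO/mdx). Every dystrophic library was above both control libraries, and replicate 1 was again the higher, 3.76-fold in mdx (95% counting interval 2.47 to 5.96) and 4.33-fold in Sirt6mKO/mdx (2.02 to 10.8). It was called higher in mdx than in control, by 2.73 on the log2 scale (SE 0.84, adjusted p = 0.0363, limma). That call rested on 2 and 12 approximate reads in control and was lost in 7 of 14 alternatives, among them the fits without control replicate 1 (2.07, adjusted p = 0.188), without mdx replicate 1 (1.80, adjusted p = 0.402), without mdx replicate 2 (3.66, adjusted p = 0.0555) and without Sirt6mKO/mdx replicate 2 (adjusted p = 0.0523). The value in Sirt6mKO/mdx against control was 2.36 (adjusted p = 0.0942, limma), and against mdx it was -0.37 (adjusted p = 0.828). Ly6a lies at chr15:74994878-74997634 (GRCm38) and shares 19.0% of its 50-base stretches with other genes, mainly Ly6c1 and Ly6i. Per the study's methods, reads with several alignments or lying over several genes were left out, so that its values may miss reads from these stretches. Of the other Ly6 genes, 3 were tested and Ly6e alone was called. Ly6e had 210 and 360 (control), 895 and 726 (mdx) and 215 and 272 (Sirt6mKO/mdx), a rise of 1.55 (adjusted p = 0.0021, limma), after which it fell by 1.73 (adjusted p = 0.0018).

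The small leucine-rich proteoglycans bind collagen fibrils in the matrix. Dcn (decorin) gave 992 and 1249 (control), 2087 and 858 (mdx) and 2013 and 1352 (labelled Sirt6mKO/mdx). Both Sirt6mKO/mdx libraries lay above control, but the log2 fold change of 0.57 (95% interval -0.19 to 1.33, adjusted p = 0.356, limma) did not pass, and it was -0.037 with all libraries scaled to equal totals. In mdx against control the value was 0.27 (adjusted p = 0.656). Lum (lumican) gave 82 and 82 (control), 315 and 64 (mdx) and 316 and 102 (labelled Sirt6mKO/mdx), where both libraries lay above control, with a log2 fold change of 1.12 (95% interval -0.14 to 2.38, adjusted p = 0.267, limma). Groups that do not overlap are frequent here: 57% of tested genes had such groups in mdx against control, 56% in Sirt6mKO/mdx against mdx and 51.6% in Sirt6mKO/mdx against control. Replicate 1 of mdx exceeded replicate 2 by 4.92-fold for Lum (3.90 to 6.32) and by 2.43-fold for Dcn (2.27 to 2.61). Both genes lie on chromosome 10 (GRCm38), Dcn at chr10:97479500-97518162 and Lum at chr10:97565501-97572703.

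Of 11 other members of this family tested, 3 were called higher in mdx than in control, Bgn, Ogn and Aspn, and 1 lower, Fmod, against 6.89% and 7.34% of all tested genes. Bgn (biglycan) had 1292 and 2111 (control), 3255 and 3676 (mdx) and 751 and 1216 (Sirt6mKO/mdx), a rise of 1.07 (adjusted p = 0.0282, limma), after which it fell by 1.85 (adjusted p = 0.0018). Ogn had 921 and 869, then 2992 and 1340, then 2295 and 3008, higher than control by 1.16 and 1.55 (adjusted p = 0.0267 and 0.0098, limma). Aspn had 9 and 5, then 77 and 21, then 116 and 28, higher by 2.42 and 2.91 (adjusted p = 0.0407 and 0.0275), and its replicate 1 was the higher in both dystrophic groups. Between mdx and Sirt6mKO/mdx, Optc was called higher and Bgn lower.

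Dpt (dermatopontin), a matrix protein that binds decorin, gave 2662 and 2501 (control), 3504 and 2180 (mdx) and 2024 and 2035 (labelled Sirt6mKO/mdx). The Sirt6mKO/mdx libraries were the 2 lowest, but the log2 fold change of -0.45 against mdx did not pass (95% interval -1.07 to 0.18, adjusted p = 0.369, limma). Scaled to equal totals it was -1.07 and was called (adjusted p = 0.0211). The gene lies at chr1:164796732-164824266 (GRCm38), and Gm32569 overlaps it on the other strand. Smoc2, a calcium-binding matricellular protein of the SPARC family, gave 47 and 69 (control), 198 and 27 (mdx) and 125 and 37 (labelled Sirt6mKO/mdx). Its groups overlapped in every comparison, with a log2 fold change of 0.36 in mdx against control (SE 0.72, adjusted p = 0.774, limma), and the mdx libraries differed 7.33-fold (5.11 to 10.6). It lies at chr17:14279506-14404790 (GRCm38), with 4930474M22Rik on the other strand. Of 5 other SPARC family genes tested, 1 fell in mdx, against 7.34% of all tested genes: Smoc1 had 122 and 137 (control), 7 and 21 (mdx) and 19 and 9 (Sirt6mKO/mdx), with a log2 fold change of -3.30 (adjusted p = 0.0025, limma). Sparc itself had 2624 and 7480, then 13327 and 7923, then 2992 and 3917, and fell by 1.59 between mdx and the libraries labelled Sirt6mKO/mdx (adjusted p = 0.0404).

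Cxcl14, a chemokine that fibroblasts secrete, gave 83 and 150 (control), 259 and 50 (mdx) and 183 and 47 (labelled Sirt6mKO/mdx). The highest and the second lowest of the 6 values were both from mdx. The log2 fold changes were 0.03, -0.29 and -0.26, with adjusted p-values of 0.979, 0.826 and 0.856 (limma), and the mdx libraries differed 5.18-fold (3.98 to 6.88). The gene lies at chr13:56288647-56296551 (GRCm38). Of 8 other genes tested on the list of CXC chemokines and their receptors, 4 fell in mdx, the ligands Cxcl1, Cxcl10 and Cxcl2 and the receptor Ackr3, and all 4 were called higher in Sirt6mKO/mdx than in mdx. Of all tested genes 7.34% were called lower in the first comparison and 5.62% higher in the second, and both comparisons use the same mdx libraries. Cxcl1, which attracts neutrophils, had 689 and 746 (control), 86 and 75 (mdx) and 822 and 1098 (Sirt6mKO/mdx).

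Gsn (gelsolin), which severs actin filaments and also has a secreted form, was the most abundant of the 10. It gave 8423 and 8221 (control), 7115 and 3858 (mdx) and 5567 and 5250 (labelled Sirt6mKO/mdx). All 4 dystrophic libraries lay below control, but neither log2 fold change passed: -0.67 in mdx (95% interval -1.46 to 0.13, adjusted p = 0.244, limma) and -0.62 in Sirt6mKO/mdx (-1.42 to 0.17, adjusted p = 0.331). Scaled to equal totals, Gsn was called lower in Sirt6mKO/mdx than in control (-1.23, adjusted p = 0.0286). The gene lies at chr2:35279663-35307892 (GRCm38) and overlaps Gm43128 on the same strand. Of 6 other gelsolin family genes, Svil was called higher in mdx, and Avil and Vil1 were called lower in mdx and higher again in Sirt6mKO/mdx, against 6.89% and 7.34% of all tested genes called higher and lower in mdx and 5.62% called higher in Sirt6mKO/mdx against mdx.

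**Figure D3:**
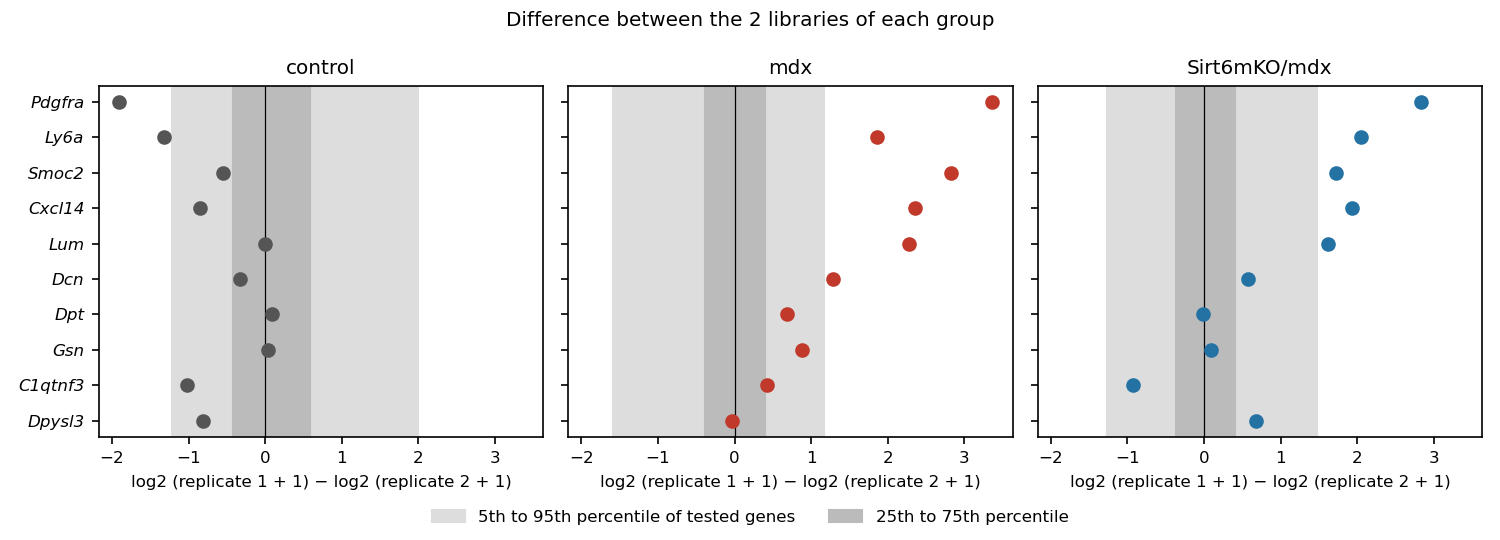
Difference between the 2 libraries of each group, as log2(replicate 1 + 1) minus log2(replicate 2 + 1) of the normalized read counts, for the 10 genes (points) against the 5th to 95th and 25th to 75th percentiles of the 15915 tested genes (light and dark bands). In mdx 6 genes and in Sirt6mKO/mdx 5 genes lie above the light band; in control Pdgfra and Ly6a lie below it.

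For 7 of the 10 genes, all but Ly6a, C1qtnf3 and Dpysl3, the 2 mdx libraries differed by more than the group means of mdx and control did on the log2 scale, as they did for 36.6% of tested genes. In mdx, 6 of the 10 were above the 95th percentile of all tested genes, Pdgfra, Smoc2, Cxcl14, Lum, Ly6a and Dcn, and in Sirt6mKO/mdx the same genes without Dcn were. Replicate 1 was at least 2-fold above replicate 2 in both groups for 5 of 10, compared with 2.36% of tested genes, a threshold chosen after the values were seen. Replicate 1 of mdx held the highest value of the 6 libraries for 7 of the 10 genes and for 19.5% of tested genes. The replicate numbers do not stand for a shared mouse or day as far as the labels say. Without replicate 1 of both groups, an alternative chosen after the data were seen, the log2 fold change in mdx against control was -0.71 for Pdgfra, -0.35 for Lum, -1.05 for Smoc2 and -1.14 for Cxcl14, all on the other side of 0 from the values with all libraries. Dcn (-0.38) and Dpt (-0.24) changed side as well, whereas Ly6a stayed above 0 at 1.80 without being called. C1qtnf3 and Dpysl3 stayed at 2.97 and 3.24, but that fit, which leaves 1 library in each of both groups and assumes that it varies as control does, called no gene of the whole table, with 1924 genes at an unadjusted p under 0.05 (limma).

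The genes closest to Pdgfra across the 6 libraries, by the mean absolute difference of centred log2(value + 1) among 9665 genes with a mean of at least 50, were Smoc2 (0.50), Cxcl14 (0.54) and Thbs4 (0.54). The first 2 are among the 10 markers. Thbs4, a thrombospondin of tendon and muscle matrix, had 27 and 76 (control), 363 and 86 (mdx) and 124 and 43 (Sirt6mKO/mdx). Closest to Dcn were Tbx15 (0.11), Aaed1 (0.11) and Dram1 (0.12). Tbx15, a transcription factor of limb mesenchyme and of muscle, had 100 and 120 (control), 160 and 89 (mdx) and 203 and 140 (Sirt6mKO/mdx).

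**Figure D4:**
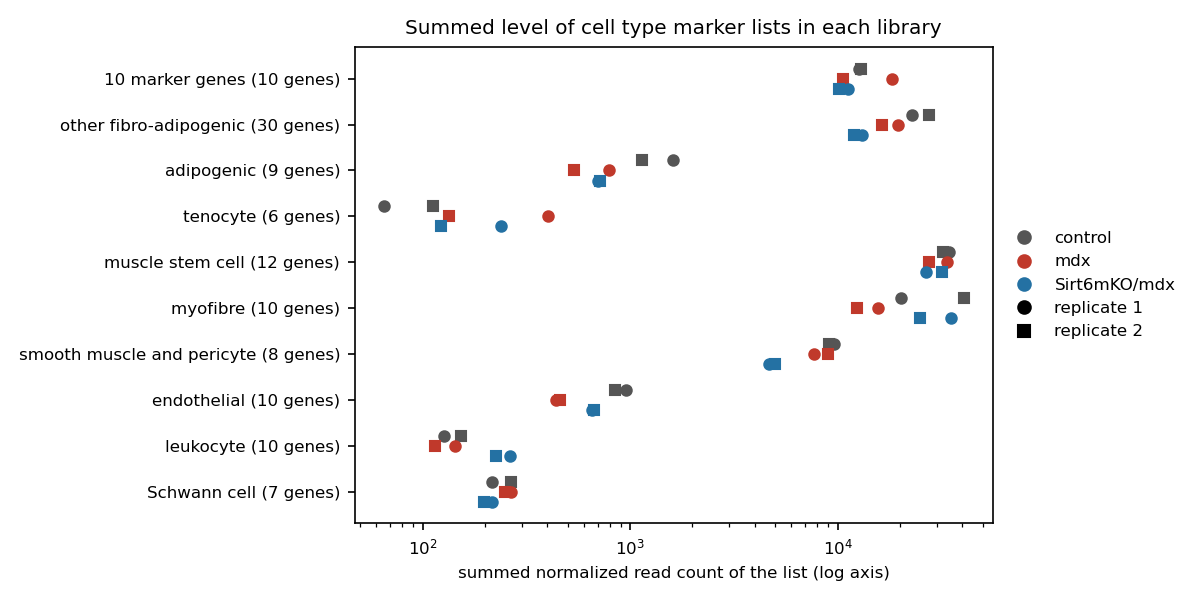
Summed normalized read count of 10 marker lists on a log axis, with 1 point per library (colour, group; circles, replicate 1; squares, replicate 2). The sums of the tenocyte list reach 404 in mdx replicate 1 and 239 in Sirt6mKO/mdx replicate 1 and lie between 65 and 134 in the other libraries, while the MuSC sums lie between 26792 and 34599.

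Levels of other cell types are given beside this library difference, and their part in it was not tested. The summed level of 6 tenocyte genes was 404 and 134 in mdx, 239 and 123 in Sirt6mKO/mdx and 65 and 112 in control, of which Thbs4 made up most in mdx replicate 1. Scx, which defines tendon cells, had 6 and 7 (control), 16 and 24 (mdx) and 45 and 52 (Sirt6mKO/mdx), and Tnmd was at 0 in control replicate 1. Mkx, a tendon transcription factor, had 18 and 17 (control), 2 and 0 (mdx) and 12 and 2 (Sirt6mKO/mdx), and was called lower in mdx than in control, the list's only call in that comparison. Without Thbs4, the most abundant gene of the list, the tendon sums were 38 and 36 (control), 41 and 48 (mdx) and 115 and 80 (Sirt6mKO/mdx). The sum of all 10 myofibre genes was 15620 and 12435 in mdx, 35174 and 24967 in Sirt6mKO/mdx and 20252 and 40568 in control. Ttn, its most abundant gene, had 10304 and 10891 in mdx, with replicate 1 the lower. The sum of the 9 other genes was 5316 and 1544 in mdx, 11543 and 5021 in Sirt6mKO/mdx and 7142 and 8821 in control, and 6 of the 10 myofibre genes were at least 2-fold higher in replicate 1 of both dystrophic groups. The myofibre list also differed between groups. In mdx against control, 4 of its 10 genes were called lower (median log2 fold change -1.33), against 7.34% of all tested genes. In Sirt6mKO/mdx against mdx, 4 were called higher (median 1.20), against 5.62% of all tested genes. None was called in Sirt6mKO/mdx against control, where 0 had an unadjusted p under 0.05 (limma), against 3828 of all 15915 tested genes. The part of these myofibre differences in the group differences of the 10 markers was not tested. Leukocyte sums over 10 genes ran from 127 to 154 in control, from 115 to 144 in mdx and from 226 to 263 in Sirt6mKO/mdx. Cd68, a lysosomal protein of macrophages, made up much of the control sums with 86 and 88, against 30 and 26 (mdx) and 107 and 56 (Sirt6mKO/mdx), and was called lower in mdx. Lyz2, a lysozyme of macrophages, was called higher in mdx than in control, by 3.22 on the log2 scale (adjusted p = 0.035, limma), and the median over the 6 leukocyte genes tested was 1.32. Without Cd68 the leukocyte sums were 41 and 66 (control), 114 and 89 (mdx) and 156 and 170 (Sirt6mKO/mdx). Their defining marker Ptprc was at 0 in both control libraries and between 3 and 19 in the others. Endothelial sums, mostly Tek, were 951 and 843 (control), 441 and 458 (mdx) and 654 and 668 (Sirt6mKO/mdx). Leaving out Tek gave 282 and 212 (control), 62 and 110 (mdx) and 151 and 199 (Sirt6mKO/mdx). In mdx against control, 2 of the 8 endothelial genes tested were called lower (median log2 fold change -1.28), against 7.34% of all tested genes. Schwann cell sums lay between 198 and 268 in all libraries, and those of smooth muscle and pericyte genes were 9596 and 9076 (control), 7736 and 9025 (mdx) and 4692 and 5013 (Sirt6mKO/mdx). Notch3, a receptor of pericytes that muscle stem cells also express, held most of the latter sums, which without it were 1765 and 2892 (control), 3695 and 3643 (mdx) and 1643 and 2224 (Sirt6mKO/mdx).

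A wider list of 30 fibro-adipogenic and fibroblast genes, 27 of them tested, moved in both directions. In mdx against control 6 were called higher, 4 lower and 17 not, where 6.89% and 7.34% of all tested genes were called higher and lower, with a median log2 fold change of 0.18. Between mdx and Sirt6mKO/mdx 4 were called lower and none higher, against 2.54% and 5.62% of all tested genes, with a median of -0.17. In Sirt6mKO/mdx against control 3 were higher and 6 lower, against 5.19% and 2.68%, with a median of -0.24. Prrx1, a transcription factor of limb mesenchyme, had 258 and 389 (control), 860 and 842 (mdx) and 480 and 488 (Sirt6mKO/mdx), a rise of 1.42 in mdx (adjusted p = 0.0017, limma). Islr, a secreted or membrane-bound protein of stromal cells, had 136 and 244, then 737 and 430, then 141 and 231, a rise of 1.62, after which it fell by 1.64 (adjusted p = 0.0057 and 0.01). Fstl1, a secreted glycoprotein, and Fbn1, the main protein of microfibrils, fell by 1.72 and 1.04 between mdx and the libraries labelled Sirt6mKO/mdx (adjusted p = 0.0068 and 0.0487). Ltbp4, which binds latent TGF-β and is a known modifier of dystrophy in mice, fell by 1.23 in mdx against control (adjusted p = 0.0054). Tnxb, tenascin-X, had 3468 and 2419 (control), 356 and 454 (mdx) and 737 and 728 (Sirt6mKO/mdx), and fell by 2.85 in mdx (adjusted p = 3.9e-06, limma).

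Genes of this wider list also differed in whether they followed the library. Only Mfap5 and Osr1 of the 27 were at least 2-fold higher in replicate 1 of both dystrophic groups, which is 7.41%. Fap, a protease of activated fibroblasts named here after its values were seen, had 51 and 46 (control), 410 and 286 (mdx) and 187 and 166 (Sirt6mKO/mdx), with a log2 fold change of 2.80 in mdx against control (adjusted p = 2.4e-05, limma). Cd34, on which the gate relied in part and which MuSCs carry too, had 826 and 1205, then 1052 and 913, then 912 and 1262. The master regulator of fat cell formation, Pparg, and the fat cell genes Adipoq, Plin1 and Lep had means below 5 and were not tested. Of 5 adipogenic genes tested, Lpl, lipoprotein lipase, alone was called, with log2 fold changes of -1.07 in mdx and -1.18 in Sirt6mKO/mdx against control (adjusted p = 0.0197 and 0.0188, limma). All 5 were below 0 in mdx against control, with a median of -1.07, where 7923 of 15915 tested genes were below 0. Between mdx and Sirt6mKO/mdx, 4 of the 5 were above 0, with a median of 1.5, where 8116 of all tested genes were above 0.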

How the data were processed

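RNA of sorted mouse MuSCs was depleted of rRNA and sequenced on an Ion Torrent instrument, with 2 libraries in each of 3 groups. Per the study's methods, with versions from the submitters' processing notes, reads were checked with FastQC 0.10.1, aligned with STAR 2.4.2a, counted with featureCounts 1.4.5-p1 and normalized with DESeq2 1.6.0. The deposited values are the resulting normalized read counts, rounded to whole numbers by the authors, and are treated as a score rather than as raw counts. Each library's scaling was estimated from the whole numbers it skips, which gave approximate reads and intervals for counting error only.

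Values were analysed as log2(value + 1) with limma 3.58.1 in R 4.3.3, on all 6 libraries together, for 15915 of 22706 genes with a mean of at least 5. The prior variance followed the mean and no replicate block was used. Genes were called at a Benjamini-Hochberg adjusted p of at most 0.05 and a change of at least 2-fold. An exact permutation test of 2 against 2 cannot go below p = 0.333 and was not used. The study's methods call the RNA-seq libraries of a group biological replicates. The p-values rest on the spread between these libraries, pooled over the 3 groups and drawn toward that of genes with a similar mean. That prior carried 12.06 degrees of freedom, so a p-value does not measure the spread of its own gene alone. The fit was tested on simulated data.

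Levels per kilobase used exon lengths of GENCODE M21 (GRCm38), which matched 98.5% of gene IDs. Promoters came from RefSeq. All 10 genes are described, and of each other gene list up to 6 called genes and up to 3 genes of highest mean could be named. Cd34, Fap, Mfap5, Osr1, Pparg, Plin1, Adipoq, Lep, Pdgfb, Ly6i, Pax7, Ptprc and Tnmd fall outside this rule and were named after their values were seen. The genes and lists were chosen with earlier results of these data known. Alternatives were another pseudocount, other minimum means, scalings and variance priors, a replicate block and leaving out libraries.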

Additional observations from a re-analysis of the deposited data

How the results depend on the processing

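With all 6 libraries, 3, 2 and 2 of the 10 genes were called in mdx against control, Sirt6mKO/mdx against mdx and Sirt6mKO/mdx against control. Leaving out libraries gave 0 to 3, 0 to 2 and 0 to 2, where the 0 in the first comparison came from leaving out replicate 1 of mdx and of Sirt6mKO/mdx together, chosen after the data were seen. Against mdx, Sirt6mKO/mdx had 0 calls with no minimum mean and 0 with 1 prior variance for all genes. Against control it had 1 (Dpysl3) with a pseudocount of 0.1, 0 with no minimum mean, 1 (Gsn) with equal totals, 0 with 1 prior variance and 1 (Dpysl3) with a robust prior. The cause was not tested. The number of calls over all genes moved as well: 2265, 1300 and 1253 in the 3 comparisons became 989, 168 and 221 with no minimum mean and 541, 0 and 87 with 1 prior variance. Without single libraries they ranged from 921 to 2326, from 252 to 1542 and from 212 to 1416.

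Scaling to equal totals moved the median log2 fold change of all genes to -0.58 in both comparisons of Sirt6mKO/mdx, and the share of higher calls from 68.8% to 14% against mdx (3411 calls) and from 65.9% to 14.5% against control (3147 calls). Against mdx, Dcn then reversed to -0.33, Lum to -0.29 and Gsn to -0.58, and against control Dcn reversed to -0.037 and Smoc2 to -0.34. C1qtnf3 and Dpysl3 stayed above control under this scaling, at 0.59 and 0.83, but were no longer called. Against mdx their falls were larger than on the values as deposited, -2.61 in place of -1.99 and -2.42 in place of -1.80, and both stayed called.

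Leaving out libraries, the log2 fold changes that reversed spanned, in mdx against control, -0.71 to 2.66 for Pdgfra, -0.38 to 0.91 for Dcn, -0.35 to 1.93 for Lum, -0.24 to 0.44 for Dpt, -1.14 to 1.21 for Cxcl14 and -1.05 to 1.78 for Smoc2. Between Sirt6mKO/mdx and mdx they spanned -1.87 to 1.49 for Pdgfra, -0.34 to 0.94 for Dcn, -0.81 to 1.48 for Lum, -0.40 to 0.49 for Gsn, -1.39 to 0.65 for Ly6a, -1.47 to 0.88 for Cxcl14 and -1.52 to 1.31 for Smoc2. Between Sirt6mKO/mdx and control they spanned -0.63 to 2.21 for Pdgfra, -1.23 to 0.71 for Cxcl14 and -0.61 to 1.12 for Smoc2. None of these was called with all libraries.

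The groups share replicate numbers 1 and 2. The differences between replicates correlated across genes at -0.13 (control and mdx), 0.12 (control and Sirt6mKO/mdx) and 0.01 (mdx and Sirt6mKO/mdx). These values cover all 15915 tested genes together. They cannot show whether fewer genes follow a pairing of the libraries, which was not tested. With the replicate block 3, 2 and 2 genes were called, and 2415, 1510 and 1404 over all genes.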
